A study of Mus musculus with 6 samples.

Results

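The 7 main globin genes of the mouse were described in RNA of fetal ovaries taken at 13.5 days post coitum (dpc). They were chosen by name, 3 from the alpha cluster on chromosome 11 (Hba-x, Hba-a1 and Hba-a2) and 4 from the beta cluster on chromosome 7 (Hbb-y, Hbb-bh1, Hbb-bs and Hbb-bt). They make up 7 of the 48709 genes in the deposited table, and all 7 passed the filter on low counts. Wild type CD1 dams received APAP (acetaminophen, 30 mg/kg per day) and IBU (ibuprofen, 15 mg/kg per day) by gavage from 10.5 to 13.5 dpc, the drugs alternating every 3 hours, while control dams received ethanol, the diluent, on the same schedule. Each of the 3 control and 3 APAP+IBU libraries came from its own pool of embryonic gonads, so no value belongs to a single embryo. The sample titles of the exposed libraries name IBU alone, whereas their exposure label names both drugs. Both drugs reached the embryos through the dam, and the comparison does not separate one drug from the other.

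Haemoglobin carries oxygen in red blood cells and is built of alpha-like and beta-like globin chains, each holding a haem group. In the mouse embryo, the first red cells come from the yolk sac and are called primitive. They make the embryonic chains, zeta from Hba-x, epsilon-y from Hbb-y and beta-h1 from Hbb-bh1, together with some adult alpha chain. Later red cells, called definitive, come from the fetal liver and make the adult chains from Hba-a1, Hba-a2, Hbb-bs and Hbb-bt. Primitive cells lose beta-h1 before epsilon-y as they mature in the circulation, and around the stage studied here both kinds of cell are in the blood. Globin mRNA is made by red cells and their precursors, and the vessels of a fetal gonad hold such cells.

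How well each globin can be told from its neighbours decides what its count means. The sequences below are the stretches of coding sequence (GENCODE M21 transcripts on GRCm38, the assembly also called mm10, read 5′ to 3′) that hold the only coding base by which the adult copies of each cluster differ. Capitals mark every base that differs from Hba-a1 in the alpha cluster, shown from base 336 to base 425 of 426, or from Hbb-bs in the beta cluster, shown from base 352 to base 441 of 441, with positions counted from the A of the start codon and the stop codon left out.
Hba-a1: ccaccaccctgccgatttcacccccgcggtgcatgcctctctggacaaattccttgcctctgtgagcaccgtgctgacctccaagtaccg
Hba-a2: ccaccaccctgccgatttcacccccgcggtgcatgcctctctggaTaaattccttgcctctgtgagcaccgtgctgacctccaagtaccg
Hba-x: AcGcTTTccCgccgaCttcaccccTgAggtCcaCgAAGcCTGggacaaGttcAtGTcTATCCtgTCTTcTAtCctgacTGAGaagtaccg
Hbb-bs: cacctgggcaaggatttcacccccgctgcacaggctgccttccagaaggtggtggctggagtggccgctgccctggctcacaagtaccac
Hbb-bt: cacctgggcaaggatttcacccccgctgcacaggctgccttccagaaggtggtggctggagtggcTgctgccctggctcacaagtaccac
Hbb-y: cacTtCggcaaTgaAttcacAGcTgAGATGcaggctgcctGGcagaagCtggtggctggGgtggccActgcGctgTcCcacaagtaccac
Hbb-bh1: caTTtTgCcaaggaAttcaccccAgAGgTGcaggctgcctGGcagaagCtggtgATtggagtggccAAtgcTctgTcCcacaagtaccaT

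The adult copies were thus nearly identical, while the embryonic genes stood clearly apart. Hba-a1 and Hba-a2 differed at 1 of 426 coding bases, and Hbb-bs and Hbb-bt at 1 of 441. Hba-x shared 61.7% of its coding bases with Hba-a1. Hbb-y and Hbb-bh1 shared 76.4% with each other, and 74.4% and 73.9% with Hbb-bs. The reads were pairs of 50 bases, so every stretch of 50 bases in the annotated transcripts was looked up in all other transcripts. All such stretches of Hba-x, Hbb-y and Hbb-bh1 were found in no other gene. Of the stretches of Hba-a1 only 27.7% were found in no other gene, and of those of Hba-a2 10.7%. For Hbb-bs this share was 46.8% and for Hbb-bt 41.7%. Within the coding sequence alone it was 12.2% for each adult alpha gene and 6.38% for each adult beta gene. Either read of a pair can place it, so these shares of single stretches are not shares of read pairs, which were not counted. Levels given per such stretch below share this limit. HTSeq leaves out reads with several alignments unless told otherwise, and its setting is not given in the sources used here. Counts of the adult genes may therefore lack many reads, and how the missing reads would fall between the copies was not tested.

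Hba-x (ENSMUSG00000055609) lies on chromosome 11 of GRCm38 from 32276400 to 32278116, Hba-a1 (ENSMUSG00000069919) from 32283511 to 32284465 and Hba-a2 (ENSMUSG00000069917) from 32296489 to 32297298, all on the plus strand. On chromosome 7 and on the minus strand lie Hbb-bt (ENSMUSG00000073940) from 103812524 to 103813996, Hbb-bs (ENSMUSG00000052305) from 103826534 to 103828096, Hbb-bh1 (ENSMUSG00000052217) from 103841637 to 103843164 and Hbb-y (ENSMUSG00000052187) from 103851749 to 103853216. Each gene has at most 3 exons in its annotated transcripts, and counts were summed over all annotated exons. A promoter sequence was matched in RefSeq (GRCm38.p6) for 6 of the 7 genes, all but Hbb-bh1. One window from each cluster is shown here, as 120 bases that end at the RefSeq start site, because each cluster holds genes with negative fold changes in the comparison below. Capitals mark matches, on either strand, to the box CACCC, the box CCAAT, the GATA motifs TGATAA and also AGATAA, and the TATA-like ATAAA, and no matches overlap in these windows.
Hba-a2 (chr11:32296372-32296491, plus strand): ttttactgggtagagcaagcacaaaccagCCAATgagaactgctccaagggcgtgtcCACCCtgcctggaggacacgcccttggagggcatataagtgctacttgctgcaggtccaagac
Hbb-y (chr7:103853208-103853327, minus strand): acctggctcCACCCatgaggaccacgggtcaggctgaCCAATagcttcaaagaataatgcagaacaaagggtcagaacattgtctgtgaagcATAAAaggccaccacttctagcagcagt

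CACCC boxes are bound by the red cell factor KLF1 and its relatives, and GATA motifs such as TGATAA by GATA1. In the 250 bases before the start, CACCC was found in all 6 globin promoters, against 52.0% of 32851 RefSeq promoters. CCAAT was found in 5 of them, all but Hba-x, against 33.9% of promoters. TGATAA was found before Hba-x, Hba-a1, Hba-a2 and Hbb-y, against 7.94% of promoters, and AGATAA before Hbb-bs alone, against 9.99%. These matches describe the letters of the windows and were not tested as binding sites.

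The total count per library ran from 37811968 to 48954631. Levels are counts in CPM, scaled to the library total by edgeR's TMM method, and values of the pools of a group are given in the order of replicates 1, 2 and 3. SE is the standard error of a fold change, and levels of different genes are compared per kilobase of exon. Globin RNA was a small part of each library. The 7 genes summed to 0.666%, 1.67% and 1.05% of all counts in the control pools, and to 0.322%, 0.521% and 0.946% in APAP+IBU pools. The mean was 1.13% ± 0.508 (SD, n = 3) in control and 0.596% ± 0.318 (SD, n = 3) in APAP+IBU ovaries, and the groups overlapped, since APAP+IBU replicate 3 was above control replicate 1. In bulk RNA, fewer red cells in a pool and less globin mRNA in each of them cannot be told apart. Marker genes were set beside the ovary label. The 10 ovary and germ cell markers summed to between 1626 and 1779 CPM in controls and 1693 and 1854 CPM after exposure, and the 5 testis markers (Sox9, Amh, Cyp17a1, Insl3 and Hsd3b1) to 17.6 to 41.1 CPM and 19.4 to 21.7 CPM. The first list holds germ cell genes such as Dazl, which had its highest mean (493 CPM), so its sum does not by itself tell ovary from testis. Foxl2, its granulosa cell gene, had 8.16, 2.38 and 0.944 CPM in controls and 2.21, 4.37 and 5.21 CPM after exposure. Sox9 had 8.42, 10.6 and 5.37 CPM in controls and 6.15, 5.98 and 5.99 CPM after exposure.

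**Figure D1:**
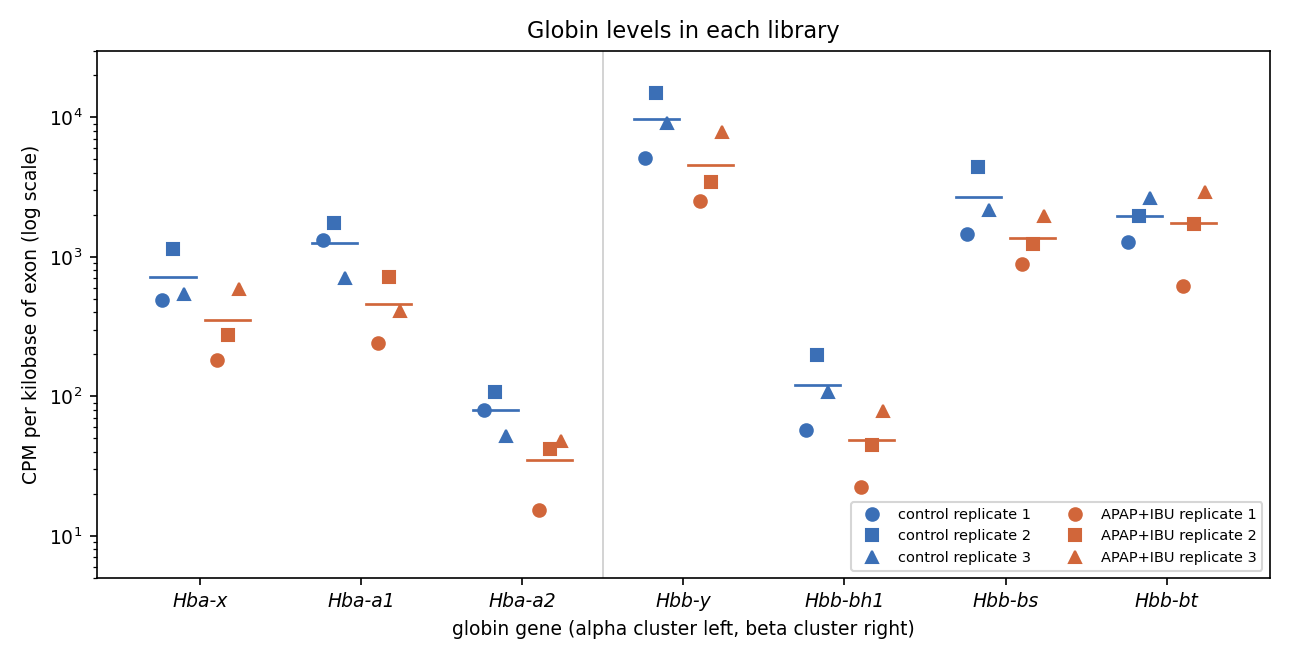
Levels of the 7 globin genes in CPM per kilobase of exon (vertical log axis) in each library, with circles, squares and triangles for replicates 1, 2 and 3 and a horizontal line for each group's mean (n = 3). Hbb-y was the highest gene in all 6 libraries, and APAP+IBU replicate 1 had the lowest level of each of the 7 genes.

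Per kilobase, the embryonic gene Hbb-y was the most abundant globin in all 6 libraries. Its level was 5112, 14985 and 9117 CPM per kilobase in control pools, and 2530, 3417 and 7808 CPM per kilobase in APAP+IBU pools. Next in control ovaries came the adult beta genes, Hbb-bs with a mean of 2682 ± 1551 and Hbb-bt with 1963 ± 683 CPM per kilobase (SD, n = 3). These neighbours did not differ beyond their spread, and they changed places between libraries. They were followed by Hba-a1 with 1256 ± 525 and Hba-x with 722 ± 360 CPM per kilobase (SD, n = 3), which likewise lay within their spread. Hbb-bh1 with 121 ± 71.2 and Hba-a2 with 79.8 ± 27.8 CPM per kilobase (SD, n = 3) were the lowest pair, and their spreads overlapped. When levels were given per 100 stretches of 50 bases found in no other gene, Hbb-y still had the highest control mean, 1056 CPM, but the adult genes came nearer to it. In APAP+IBU replicate 2 Hbb-bt, at 440 CPM, was above Hbb-y, at 370 CPM, in this unit. The control mean was then 615 CPM for Hbb-bs, 506 CPM for Hbb-bt and 483 CPM for Hba-a1. For Hba-a1 these stretches include bases of an annotated transcript that starts before the RefSeq start site, and its use was not tested.

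In the comparison of exposed with control ovaries, all 7 globin genes had negative fold changes over the 6 libraries, and none passed the test. The edgeR quasi-likelihood test with Benjamini-Hochberg adjustment called 0.0% of the 20167 genes tested at an adjusted p under 0.05. In that fit 1254 genes had an unadjusted p under 0.05, and DESeq2 called 192 genes, of which Hba-a1 was the only globin. The median log2 fold change was -1.09 over the 7 globins and -0.0047 over all genes tested. Of the 7 globins 6 had a log2 fold change under -0.9, against 2.64% of all genes tested, and 3 had an unadjusted p under 0.05 and were lower, against 3.21%. The globin genes share the same cells and libraries, so these counts are not 7 separate observations. Control replicate 2 weighed heavily in several of these values. Without it the log2 fold change was -0.55 for Hba-x, -0.63 for Hbb-y, -0.76 for Hbb-bh1 and -0.42 for Hbb-bs. For the other genes the log2 fold change was then -1.14 (Hba-a1), -0.91 (Hba-a2) and -0.17 (Hbb-bt). Without APAP+IBU replicate 3 it was -1.67 for Hba-x and -1.73 for Hbb-y.

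Among the embryonic genes, Hbb-y, which encodes the epsilon-y chain of primitive red cells, had 3236, 9486 and 5771 CPM in control pools and 1601, 2163 and 4943 CPM in APAP+IBU pools. The groups overlapped, because APAP+IBU replicate 3 was above control replicate 1. The log2 fold change of Hbb-y was -1.09 (SE 0.49, edgeR adjusted p = 0.692). Hbb-bh1, which encodes the beta-h1 chain and is the first of the beta cluster to be lost from primitive cells, had 35.1, 121 and 66.0 CPM in controls and 13.7, 27.6 and 48.1 CPM in exposed ovaries. Control replicate 2 was again the highest library of Hbb-bh1 and APAP+IBU replicate 1 the lowest, and between them the level differed 8.82 times, the widest range of the 7 genes. Its log2 fold change was -1.32 (SE 0.53, edgeR adjusted p = 0.692). Hba-x, the zeta gene of the alpha cluster, had 459, 1067 and 505 CPM in controls and 172, 260 and 553 CPM in exposed ovaries. APAP+IBU replicate 3 thus had more Hba-x RNA than control replicates 1 and 3, while the other exposed libraries were below all controls. The log2 fold change of Hba-x was -1.04 (SE 0.47, edgeR adjusted p = 0.692).

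Among the adult genes of the alpha cluster, Hba-a1 had 1074, 1417 and 568 CPM in control pools and 197, 586 and 330 CPM in APAP+IBU pools. Only APAP+IBU replicate 2 and control replicate 3 overlapped. Its log2 fold change of -1.46 (SE 0.44, edgeR adjusted p = 0.686) was the most negative of the 7. Hba-a2, the other copy, had 52.8, 72.0 and 34.9 CPM in controls and 10.2, 27.9 and 32.1 CPM in exposed ovaries. It was the only globin with every exposed library below every control library, a pattern shown by 5.92% of all genes tested. Its log2 fold change was -1.19 (SE 0.42, edgeR adjusted p = 0.692). Control replicate 3 and APAP+IBU replicate 3 were near to each other in Hba-a2 and held the nearest pair of values of the groups.

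The adult genes of the beta cluster parted from each other. Hbb-bs had 1120, 3400 and 1659 CPM in controls and 680, 950 and 1495 CPM in exposed ovaries, with APAP+IBU replicate 3 above control replicate 1. Its log2 fold change was -0.98 (SE 0.43, edgeR adjusted p = 0.692). Hbb-bt, its near-identical copy, had 904, 1372 and 1864 CPM in controls and 436, 1202 and 2060 CPM in exposed ovaries, so that the highest library of all was an exposed one. The log2 fold change of Hbb-bt was -0.16 (SE 0.50, edgeR adjusted p = 0.918). Hbb-bs made up 55.3%, 71.3% and 47.1% of the summed counts of both genes in control pools, and 60.9%, 44.1% and 42.0% in APAP+IBU pools. Counting error on these shares was at most 0.804 points (width of the 95% Wilson interval), far less than the spread between pools of one group. The reference genome is that of C57BL/6J, in which the adult beta locus carries this pair of genes, whereas CD1 is an outbred stock, and other mouse strains carry a different adult beta pair. What alleles these pools held, and how reads from other alleles were assigned, was not tested. Hba-a1, in contrast, made up a nearly constant part of the adult alpha counts, from 94.2% to 95.3% in controls and from 91.1% to 95.5% in exposed ovaries.

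**Figure D2:**
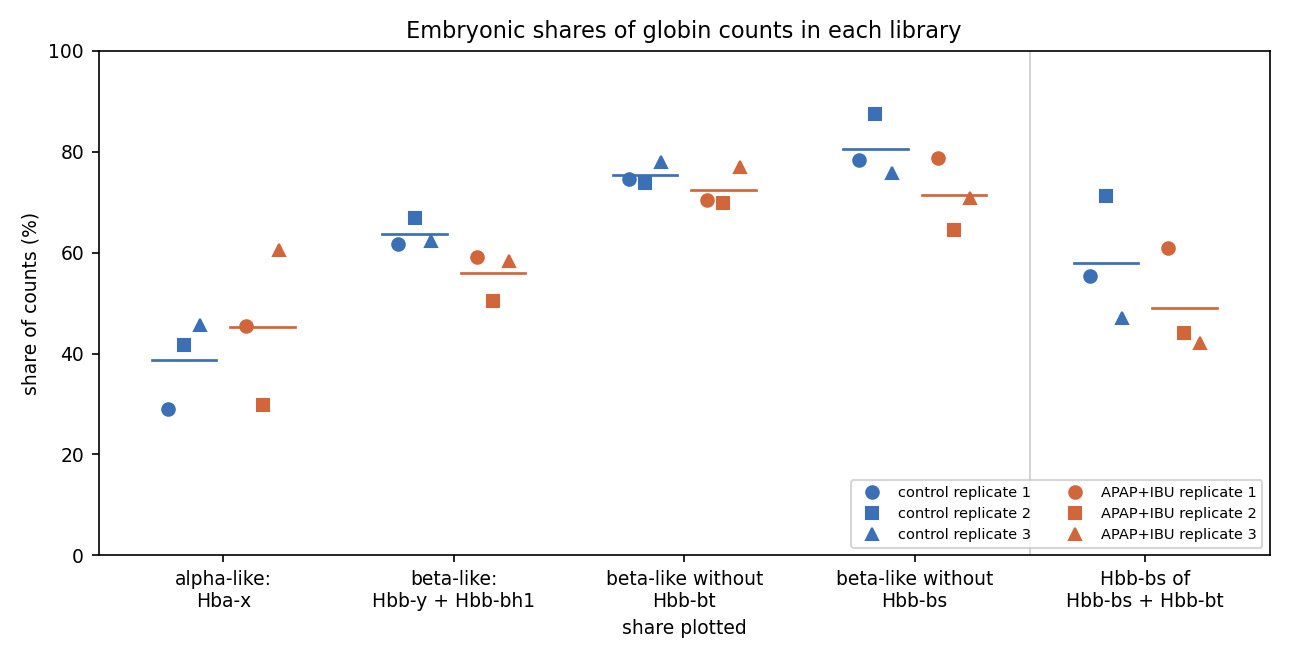
Percent of counts (vertical axis) in each library: Hba-x among alpha-like globins, Hbb-y and Hbb-bh1 among beta-like globins with both adult genes or without one of them, and, right of the line, Hbb-bs among the adult beta genes, with horizontal lines for the group means (n = 3). The embryonic beta-like share did not overlap between groups with both adult genes counted, 61.8% to 66.8% against 50.4% to 59.1%, and overlapped when either adult gene was left out.

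The embryonic share of beta-like counts, that is Hbb-y and Hbb-bh1 among the 4 genes of the cluster, asks how much of the beta-like RNA was of the primitive kind. It was 61.8%, 66.8% and 62.4% in control pools, and 59.1%, 50.4% and 58.4% in APAP+IBU pools. Every exposed library was below every control library. The means were 63.6% ± 2.76 (SD, n = 3) and 56.0% ± 4.82 (SD, n = 3), a difference of -7.65 points. This share is built from the members themselves and was given no p-value. Counting error was at most 0.518 points (width of the 95% Wilson interval, which covers counting error only). Nearly all of the embryonic part was Hbb-y, and Hbb-bh1 was 1.07% to 1.26% of it in controls and 0.851% to 1.26% after exposure.

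The gap in the embryonic beta-like share depended on which adult gene stood beside it. Per kilobase of exon the means were 67.2% and 59.6%, a difference of -7.58 points. Per stretch of 50 bases found in no other gene the means were 47.9% and 39.7%, a difference of -8.21 points. By these means the embryonic genes were the smaller part, but in control replicate 2 their share was 52.0%. The groups overlapped in neither unit. With Hbb-bs as the only adult gene, the share was 74.5%, 73.9% and 77.9% in controls and 70.4%, 69.8% and 77.0% in exposed ovaries, the groups overlapped, and the difference fell to -3.04 points. With Hbb-bt as the only adult gene, it was 78.3%, 87.5% and 75.8% in controls and 78.7%, 64.6% and 70.8% in exposed ovaries, a difference of -9.18 points, and the groups overlapped as well. Without control replicate 2 the difference with both adult genes was -6.07 points, and without APAP+IBU replicate 2 it was -4.88 points.

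The alpha cluster did not show the same order. Hba-x made up 29.0%, 41.7% and 45.6% of alpha-like counts in control pools, and 45.4%, 29.7% and 60.4% in APAP+IBU pools. The means were 38.8% ± 8.70 (SD, n = 3) and 45.2% ± 15.3 (SD, n = 3), so the difference of 6.42 points was smaller than the spread between pools and opposite in sign to that of the beta cluster. It was -1.21 points without APAP+IBU replicate 3. The clusters also ranked the libraries differently, since control replicate 1 had the lowest alpha-like share but not the lowest beta-like share. Because most stretches of 50 bases in the adult alpha genes occur in both copies, the level of this share depends on the unit, and the control mean was 35.2% per kilobase and 12.2% per stretch of 50 bases found in no other gene. Alpha-like genes as a whole gave 23.0%, 15.1% and 10.6% of globin counts in controls and 12.2%, 16.8% and 9.68% in exposed ovaries, which for the same reason does not measure the balance of the chains.

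Replicate 3 of both groups stood apart in other blood and liver genes. The 20 red cell markers, among them the anion exchanger Slc4a1 and the carbonic anhydrase Car2, summed to 261, 364 and 860 CPM in control pools and to 142, 311 and 1366 CPM in APAP+IBU pools. For 18 of the 20, both replicate 3 libraries were above all 4 others. The 20 liver markers, led by Afp and Alb, secreted proteins of the albumin family, summed to 282, 601 and 2197 CPM in controls and 216, 431 and 3572 CPM after exposure, and all 20 were highest in both replicate 3 libraries. Both replicate 3 libraries were likewise above all 4 others for 11 of 17 genes for haem synthesis and iron, and for 0 of the 10 ovary and germ cell markers. The share of all genes tested with this order was not counted. None of the 20 liver genes was at 0 in any library. Of the 7 globins only Hbb-bt was highest in both replicate 3 libraries, and 6 were highest in control replicate 2. Summed globin was 6881, 16934 and 10470 CPM in control pools and 3110, 5216 and 9461 CPM in APAP+IBU pools, so replicate 3 was the highest exposed library. Per CPM of red cell markers, the libraries held 26.4, 46.5 and 12.2 CPM of globin in control pools and 22.0, 16.8 and 6.93 CPM in APAP+IBU pools. Replicate 3 had the lowest value of each group, so globin RNA and the summed RNA of the 20 red cell markers did not keep one ratio across the pools. The part of liver tissue in these values was not tested.

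**Figure D3:**
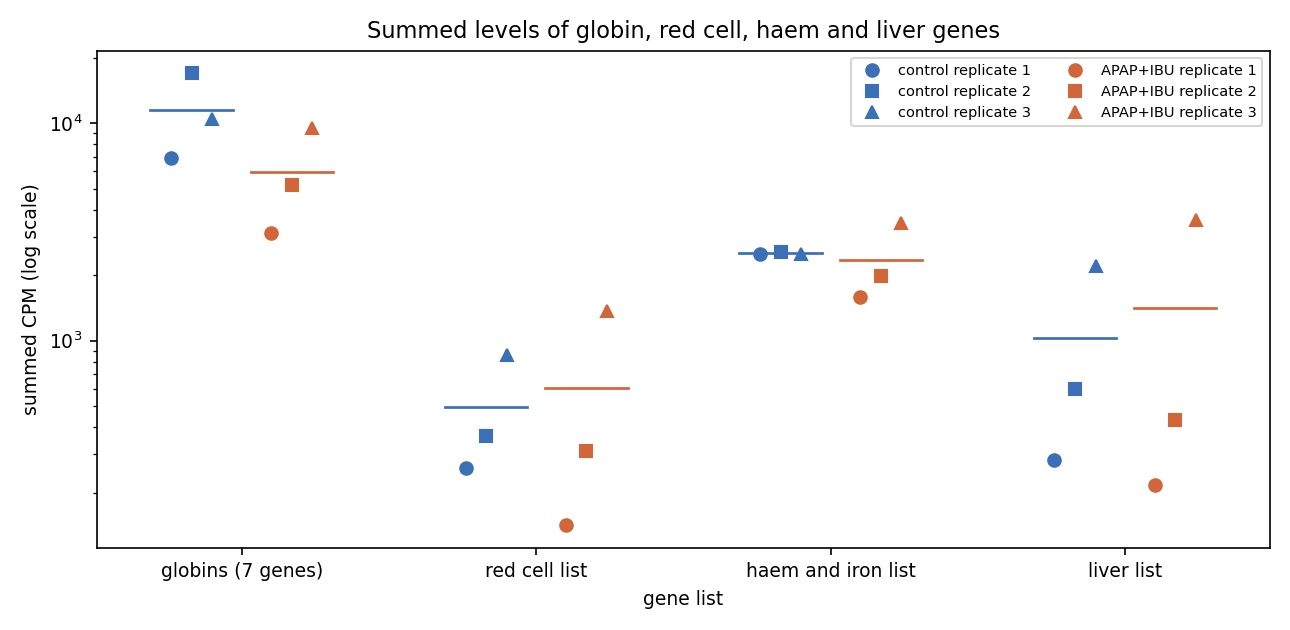
Summed CPM (vertical log axis) of the 7 globins and of the red cell, haem and iron, and liver gene lists in each library, with horizontal lines for the group means (n = 3). Both replicate 3 libraries (triangles) were the highest of their group for the red cell and liver lists. Globins were highest in control replicate 2 and, among exposed libraries, in APAP+IBU replicate 3.

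Without the replicate 3 libraries, 6 of the 7 globins were lower in APAP+IBU ovaries. In edgeR's test on replicates 1 and 2 of each group, the adjusted p ran from 0.0146 (Hba-x) to 0.0499 (Hbb-bs) for these 6 genes, and 12.9% of the 20633 genes tested were called lower. The log2 fold change was -1.80 for Hba-x (SE 0.37), -1.90 for Hbb-bh1 (SE 0.55) and -1.74 for Hbb-y (SE 0.44). It was -1.65 for Hba-a1 (SE 0.43), -1.70 for Hba-a2 (SE 0.40) and -1.45 for Hbb-bs (SE 0.45). Hbb-bt did not pass, with a log2 fold change of -0.46 (SE 0.41, edgeR adjusted p = 0.439). For those 6 genes, both exposed libraries were below both control libraries, as were 35.5% of all genes tested. Globin transcripts are short, and once length and GC trends had been taken out of every library 0 of the 7 passed, against 8.18% of the 20567 genes of that edgeR fit called lower. Of the 7, 6 were lower with an unadjusted p under 0.05 in that fit, against 17.3% of its genes. The corrected log2 fold changes ran from -1.64 (Hbb-bh1, edgeR adjusted p = 0.0726) to -0.061 (Hbb-bt, adjusted p = 0.937). The smallest adjusted p of the 7 was just over the limit, at 0.0541 (Hba-x, log2 fold change -1.31).

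**Figure D4:**
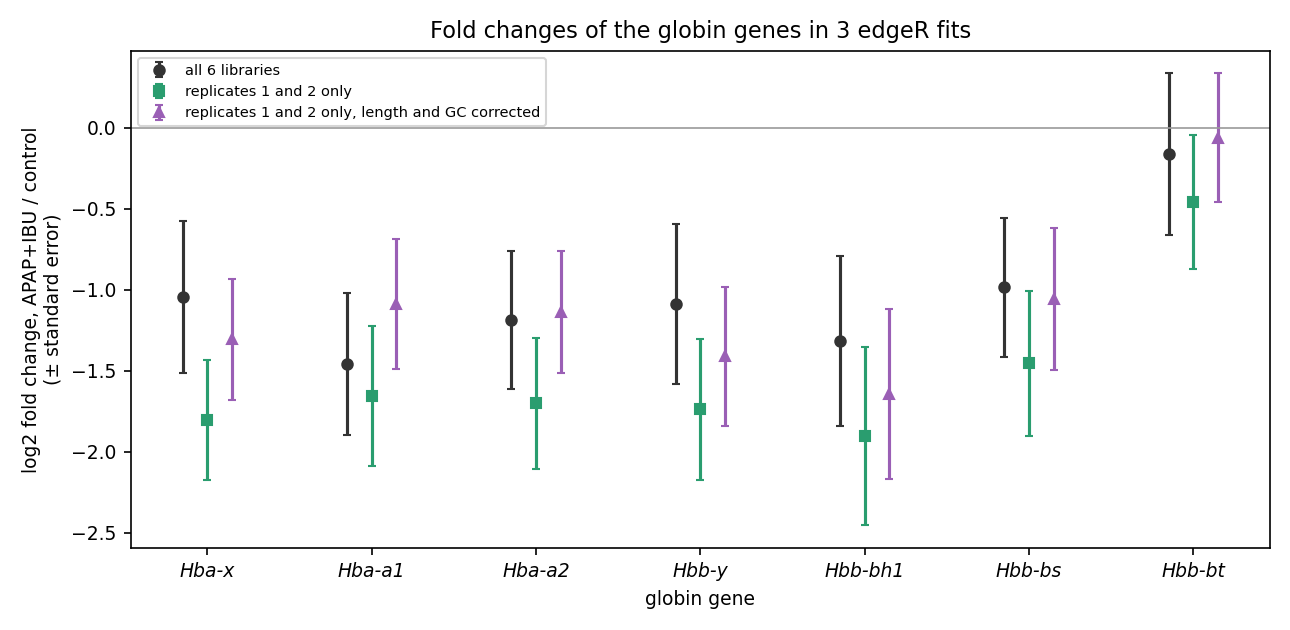
Log2 fold change of each globin gene in APAP+IBU against control ovaries with its SE (vertical axis), from edgeR on all 6 libraries, on replicates 1 and 2 of each group, and on these 4 libraries after correction for gene length and GC content. The values of 6 genes lay between -0.98 and -1.90, and Hbb-bt lay between -0.061 and -0.46 in the 3 fits.

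Over the 6 libraries, the list of haem and iron genes and that of globin regulators did not, as a whole, share the negative fold changes of the globins. Of the 17 genes for haem synthesis and iron, 0 were called in edgeR's test over all 6 libraries and 0 had an unadjusted p under 0.05, 5 had negative and 12 positive fold changes, and their median log2 fold change was 0.14. The 3 most abundant were Ftl1 and Fth1, the chains of the iron store ferritin, and Tfrc, the transferrin receptor. In replicates 1 and 2 alone, 5 of the 17 were called lower and 2 higher. Of all 20633 genes tested there, 2670 (12.9%) were called lower and 2937 higher. Ftl1 had a log2 fold change of -1.08 there (edgeR adjusted p = 0.00623), Fth1 one of -0.87 (adjusted p = 0.00623) and Tfrc one of 0.68 (adjusted p = 0.00714). This fit had no correction for length and GC content, with which the genes called fell from 5607 to 2836. Corrected values of Ftl1, Fth1 and Tfrc were not looked at. Over the 6 libraries Ftl1 was at -0.44 (adjusted p = 0.713), Fth1 at -0.46 (adjusted p = 0.692) and Tfrc at 0.45 (adjusted p = 0.7). Alas2, a haem synthesis gene of the list and among its 5 negative genes, was at -0.22 (edgeR adjusted p = 0.888). In replicates 1 and 2 alone it was at -0.73 (edgeR adjusted p = 0.227). Of the 14 regulators with a value, 0 were called and 0 had an unadjusted p under 0.05 in edgeR's test over the 6 libraries, with a median log2 fold change of 0.056. Ahsp, the chaperone of the alpha chain, was not analysed here. Ldb1, Klf3 and Zfpm1, the most abundant of the list, had log2 fold changes of 0.092, 0.12 and 0.011 over the 6 libraries. In replicates 1 and 2 alone, the 14 regulators had a median log2 fold change of -0.22. Of these, 1 was called lower, Nfe2 (log2 fold change -0.87, edgeR adjusted p = 0.0406), and 0 were called higher, against 12.9% of all genes tested called lower there.

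The factors of the globin switch were low. Gata1, the main red cell factor, had 5.27, 6.99 and 12.7 CPM in control pools and 2.88, 4.30 and 18.3 CPM in APAP+IBU pools. Klf1, which drives the adult beta genes, had 3.96, 2.76 and 11.5 CPM in controls and 1.20, 3.56 and 21.8 CPM after exposure. Both were highest in replicate 3 of each group, as the red cell markers were. Bcl11a and Sox6, repressors of embryonic globins in definitive cells, ran from 5.27 to 8.20 and from 17.2 to 32.0 CPM in controls, and from 6.35 to 10.2 and from 21.5 to 27.4 CPM after exposure. Myb, a factor of definitive progenitors, ran from 3.24 to 6.01 CPM in controls and from 2.69 to 5.67 CPM after exposure. The log2 fold changes of these 5 genes lay between -0.18 (Myb) and 0.54 (Klf1), with adjusted p from 0.73 to 0.993 in edgeR's test.

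Markers of other cells in the pools were set beside the globins. In edgeR's test 0 genes of any of these lists were called over the 6 libraries. In its fit to replicates 1 and 2 alone, without length and GC correction, 12.9% of all 20633 genes tested were called lower. The 20 red cell markers had a median log2 fold change of 0.35, with 18 positive, the opposite sign to the globins, and in replicates 1 and 2 alone a median of -0.40 with Bpgm, the red cell enzyme of bisphosphoglycerate, as the only one called (lower). The 20 liver markers had a median of 0.60, and in replicates 1 and 2 alone 1 of them, Apoa1, was called lower. The 10 platelet markers summed to 63.7 to 84.8 CPM in controls and 45.4 to 85.1 CPM after exposure (median -0.24), and the 10 macrophage and white cell markers to 83.6 to 103 CPM and 62.1 to 109 CPM (median -0.27). In replicates 1 and 2 alone, 2 and 3 genes of these lists were called lower. The 10 endothelial markers, of the vessels that hold the blood, summed to 623, 619 and 620 CPM in controls and 559, 499 and 577 CPM after exposure, without overlap. Of the 10, 9 had negative fold changes, and the median was -0.22 against -0.0047 over all genes tested. The share of all genes with a negative fold change was not counted. Taken singly, 1 of the 10, Tek, had every exposed library below every control library, a pattern shown by 5.92% of all genes tested. In edgeR's test over the 6 libraries 0 of the 10 had an unadjusted p under 0.05. In replicates 1 and 2 alone 4 of them were called lower. The part of vessel or blood cell number in the globin values was not tested. The 10 ovary and germ cell markers had a median of 0.013, with 5 of 10 negative, and the 4 testis markers tested one of -0.67.

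The minor globins were low. The pseudogene Hbb-bh0, which lies between Hbb-bh1 and Hbb-y, had 2.83, 6.29 and 2.53 CPM in controls and 0.848, 0.895 and 3.18 CPM in exposed ovaries. Its log2 fold change was -1.25 (SE 0.59, edgeR adjusted p = 0.692). Hbq1b, a theta-like gene of the alpha cluster, reached at most 2.92 CPM, and Hbq1a, Hbb-bh2 and Hbb-bh3 did not pass the filter. Of the globins outside the clusters, cytoglobin (Cygb) had 27.8 to 63.0 CPM in controls and 36.6 to 44.7 CPM after exposure, while the control means of neuroglobin (Ngb) and myoglobin (Mb) were 1.04 and 0.424 CPM.

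Across the 6 libraries, log2 levels of the embryonic genes and Hbb-bs rose and fell together. Pearson's r, given as a description over 6 libraries that also share depth and tissue makeup, was 0.98 for Hbb-bh1 with Hbb-y, 0.98 with Hbb-bs and 0.97 with Hba-x. For Hbb-bt with the other genes of its cluster it was 0.65 to 0.75, and for Hba-a1 with Hbb-bt 0.35. Among 10973 other genes with a mean of at least 10 CPM, the most like Hbb-bh1 were the linker histone Hist1h1c (r = 0.99), the glucose transporter Slc2a3 (r = 0.97), Bpgm (r = 0.97), Atp8b2 (r = 0.97) and Atp6v0a1 (r = 0.96). The most like Hbb-bs were Apmap (r = 0.98), Pdzd11 (r = 0.96), Pgk1-rs7 (r = 0.96), Slc2a3 (r = 0.96) and Bcat1 (r = 0.95). With 6 libraries and this many genes compared, high values arise readily, and nothing on function follows from them. Slc2a3 had 51.0, 76.7 and 62.4 CPM in control pools and 37.5, 40.5 and 51.0 CPM in APAP+IBU pools, and its adjusted p was 0.692 in edgeR's test.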

How the data were processed

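The 3 control and 3 APAP+IBU libraries hold RNA of 13.5 dpc ovary pools. The authors prepared stranded libraries from polyadenylated RNA, aligned reads to mm10 with TopHat2 2.0.14 and Bowtie2 2.1.0, counted them per Ensembl gene with HTSeq 0.6.1 and deposited raw counts of 48709 genes. The strand and multiple-alignment settings are not given in the sources used here. After the expression filter of edgeR 4.0.16 (under R 4.3.3), 20167 genes entered its quasi-likelihood test with TMM scaling, and p-values were adjusted after Benjamini and Hochberg. Shares are percent of the deposited counts. DESeq2 1.42.0, other scalings, filters, a replicate block and fits without single libraries were alternatives. Length and GC content used a loess span of 0.3. Names and lengths came from GENCODE M21, and promoters from RefSeq. The member genes and the gene lists were chosen with earlier results of these data known. The names were the members, other globins, the 3 most abundant genes of a list, 5 switch factors and the genes most alike in pattern, and some of these are given by counts only. Other genes named were chosen after their values were seen. Pairs of libraries of one group differed beyond sampling noise (chi-square per degree of freedom 18.8 to 158). Per the study's methods, each experiment used a pair of dams per condition, and their embryonic gonads were pooled. Control and exposed pools may thus share an experiment, which the main fit did not use, and its p-values measure the spread between such pools.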

Additional observations from a re-analysis of the deposited data

How the results depend on the processing

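Over all genes, edgeR called 0 genes with 6 libraries. DESeq2 called 192, the fit without a filter beyond 1 count 120, a replicate block 2, and that block combined with the correction for length and GC content 26. Leaving out one library gave 0 to 1064 genes, the most without control replicate 3, and leaving out replicate 3 of both groups gave 5607, or 2836 with length and GC correction. Of the globins 0 were called with 6 libraries, 1 with DESeq2 (Hba-a1, adjusted p = 0.0412), 0 to 1 without one library (Hba-a1 without control replicate 3) and 6 without replicate 3 of both groups. The length and GC correction of those 4 libraries and the share with one adult beta gene were added after seeing the data. The log2 fold change of Hbb-bt was 0.12 without control replicate 3 and 0.24 without APAP+IBU replicate 1, with a range of -0.78 to 0.24 without one library, and the other 6 globins were negative under every fit run. The embryonic beta-like difference was -3.04 points with Hbb-bs as the only adult gene and -9.50 points without replicate 3 of both groups. It ran from -9.22 to -4.88 points without one library. The alpha-like difference ran from -1.21 to 14.1 points and that of the globin share of all counts from -0.767 to -0.263 points without one library. The cause of these changes was not tested, apart from the fewer libraries or genes an alternative uses by its construction. The replicate numbers were not taken to pair the pools, since over all genes deviations from the group means correlated at -0.069, -0.015 and -0.044 for the 3 numbers and 0 libraries were most like the one with their own number. Over the 7 globins alone these correlations were -0.188, -0.438 and 0.788. The block called 0 globins. With it 6 of the 7 had an unadjusted p under 0.05 in edgeR's test, against 681 of all 20167 genes. In the main fit these numbers were 3 and 1254. Whether pools of the same number came from the same experiment is not stated in the sources used here. Each member had at least 516 counts in each library, and reads that fit several copies may be missing from the adult genes.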
